A study of Mus musculus with 12 samples.

Results

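The effect of losing PD-1 in donor CD4+ T cells that already lacked STAT3 was measured in the liver by RNA-Seq. The comparison set 2 libraries of STAT3-/-PD-1-/- CD4+ T cells against 2 libraries of STAT3-/- CD4+ T cells, 4 of the 12 libraries of the series, and was read across 11959 of the 25078 genes in the count table. The STAT3-/- donors were C57BL/6 mice with floxed Stat3 alleles and a Cre recombinase driven by the CD4 promoter, which acts in T cells. The STAT3-/-PD-1-/- donors carried the same floxed alleles and Cre and in addition lacked PD-1 in the germline, so that every cell of these donors, not T cells alone, lacked an intact gene. WT donors were C57BL/6 mice with neither change, and their 2 CD4+ libraries entered the fit for its estimate of the spread. All recipients were WT BALB/c mice that were irradiated and given T cell-depleted bone marrow from WT C57BL/6 mice together with the donor T cells. Cells were taken on day 6 after transplantation and sorted as donor-type H-2Kb+ TCRβ+ CD4+ cells, with the lymphocytes of 3 recipients combined for each library. A group with PD-1 loss alone was not analysed here, so that the values below describe PD-1 loss on a STAT3-deficient background only.

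PD-1, encoded by Pdcd1, is an inhibitory receptor that activated T cells display. When bound by its ligands PD-L1 or PD-L2, its cytoplasmic tail recruits the phosphatase SHP-2 and, less firmly, SHP-1, which dampen signals from the T cell receptor and from CD28. In graft-versus-host disease donor T cells recognize the tissues of the recipient, and PD-L1 on those tissues can restrain them. STAT3 is the transcription factor through which IL-6, IL-21, IL-23 and IL-10 signal in T cells.

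The STAT3-/- libraries held 22273776 and 22692282 counts on genes and the STAT3-/-PD-1-/- libraries 22536488 and 24016266. Cd4 was read at 1669 and 1888 CPM (TMM-scaled read counts brought to a common library size) in STAT3-/- and at 1322 and 1256 in STAT3-/-PD-1-/- libraries, and Cd3e at 621 and 733 against 609 and 593. Cd8b1, the more abundant of the CD8 genes, was read at 11.5 and 9.43 against 14.05 and 19.6 CPM. The B cell gene Ms4a1 had 0 reads in all of these 4 libraries. STAT3-/-PD-1-/- replicate 1 stood apart in its share of reads on Rn45s, the ribosomal RNA precursor, with 1.91% against 0.720% in its partner and 0.505% and 0.848% in the STAT3-/- libraries. In bulk libraries, fewer cells of a type and less RNA per cell cannot be told apart, and this holds for every gene below.

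The deleted genes were read first. Pdcd1 (chr1:94038305-94052553 in build mm10) was read at 257 and 323 CPM in STAT3-/- and at 55.1 and 26.3 CPM in STAT3-/-PD-1-/- CD4+ T cells. Both STAT3-/-PD-1-/- libraries lay far below both STAT3-/- libraries, and the log2 fold change was -2.83 ± 0.33 (SE, n = 2 libraries in each group, adjusted p = 0.00724 by edgeR's quasi-likelihood test). From here on paired CPM are those of replicates 1 and 2, with STAT3-/- before STAT3-/-PD-1-/-, a value given with ± is a log2 fold change with its SE, and adjusted p-values are from the same test unless another is named. Without STAT3-/-PD-1-/- replicate 2 the log2 fold change of Pdcd1 was -2.40 and its adjusted p 0.0701. Reads on Pdcd1 were thus fewer but not gone, and which exons the PD-1 allele removes is not stated in the sources used here. The WT libraries were at 242 and 235 CPM, and Pdcd1 in STAT3-/- did not pass the test against them (log2 fold change 0.28, adjusted p = 0.841). Stat3, whose floxed part is deleted in both groups compared, was read at 138 and 164 against 157 and 222 CPM, with overlapping groups (log2 fold change 0.33 ± 0.22, adjusted p = 0.353). The WT libraries were at 362 and 466 CPM for Stat3, above all 4. Against WT, Stat3 passed the test in STAT3-/-PD-1-/- (log2 fold change -1.13, adjusted p = 0.0180) but not in STAT3-/- (-1.46, adjusted p = 0.0550). Of the other members of the PD-1 axis, Ptpn6, which encodes SHP-1, was at 413 and 415 against 341 and 269 CPM (adjusted p = 0.109) and Ptpn11, which encodes SHP-2, at 528 and 595 against 626 and 643 CPM (adjusted p = 0.430). The ligand genes Cd274 and Pdcd1lg2 in the T cells themselves did not pass the test either (log2 fold change -0.60 and -0.01).

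**Figure D1:**
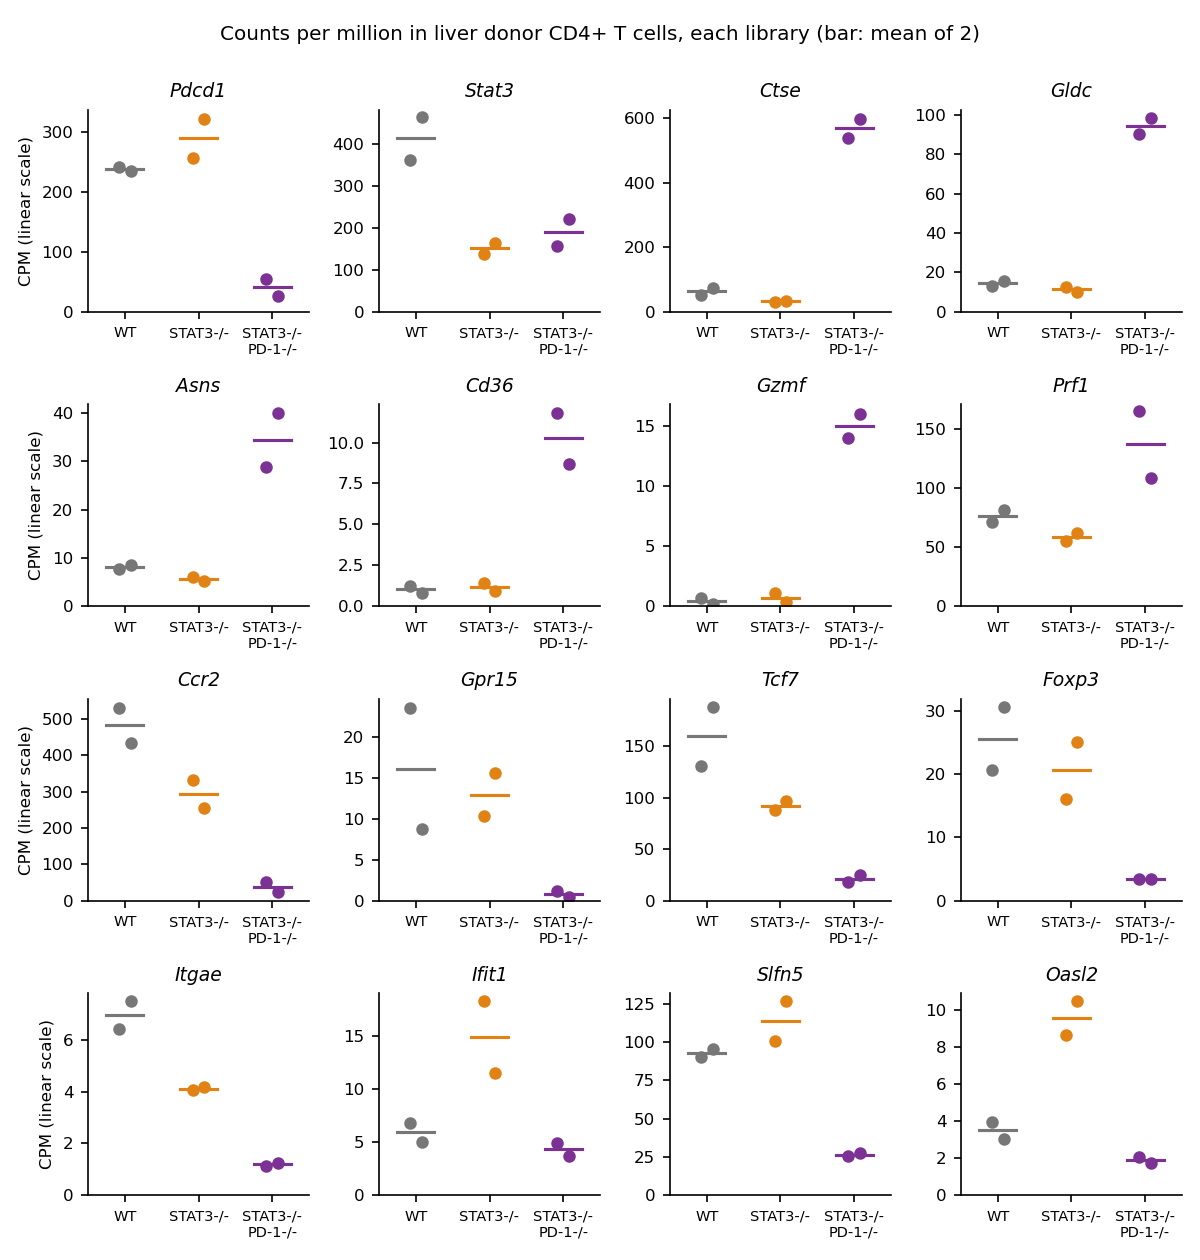
CPM of 16 genes on linear axes that start at 0, in WT, STAT3-/- and STAT3-/-PD-1-/- CD4+ T cells, with 1 point for each library and a bar at the mean of 2. Apart from Stat3, the STAT3-/- and STAT3-/-PD-1-/- points do not overlap in any of these panels, nor do those of 59% of all genes tested.

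At an adjusted p under 0.05, 1324 genes (11.1% of those tested) differed between STAT3-/-PD-1-/- and STAT3-/- CD4+ T cells. Of these, 723 (6.05%) were higher and 601 (5.03%) lower in STAT3-/-PD-1-/-. The 2 groups did not overlap for any of the 1324 genes, where 59% of all genes tested did not overlap. The change was at least 2-fold for 408 of the higher and 309 of the lower genes, and at least 4-fold for 161 and 70. The higher genes tended to be read less often, with a median log2 CPM of 4.29 against 4.95 over all genes tested, and the lower genes more often, at 5.64. With scaling by library totals in place of TMM, 946 genes were higher and 489 lower. DESeq2 called 2100 genes. With the replicate number as a block edgeR called 3105, all 1324 among them. Of the genes described here that did not pass, 31 were also read in that fit. There 10 of the 31 passed (Cd4, Fos, Gss, Gzmb, Havcr2, Junb, Lag3, Ptpn6, Rac2 and Tigit). The count without the block rested on both STAT3-/-PD-1-/- libraries: it was 66 without replicate 1 and 0 without replicate 2, where 1922 genes still had an unadjusted p under 0.05, and 569 without STAT3-/- replicate 2. In such fits the remaining library of a group is assumed to vary like the other groups.

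**Figure D2:**
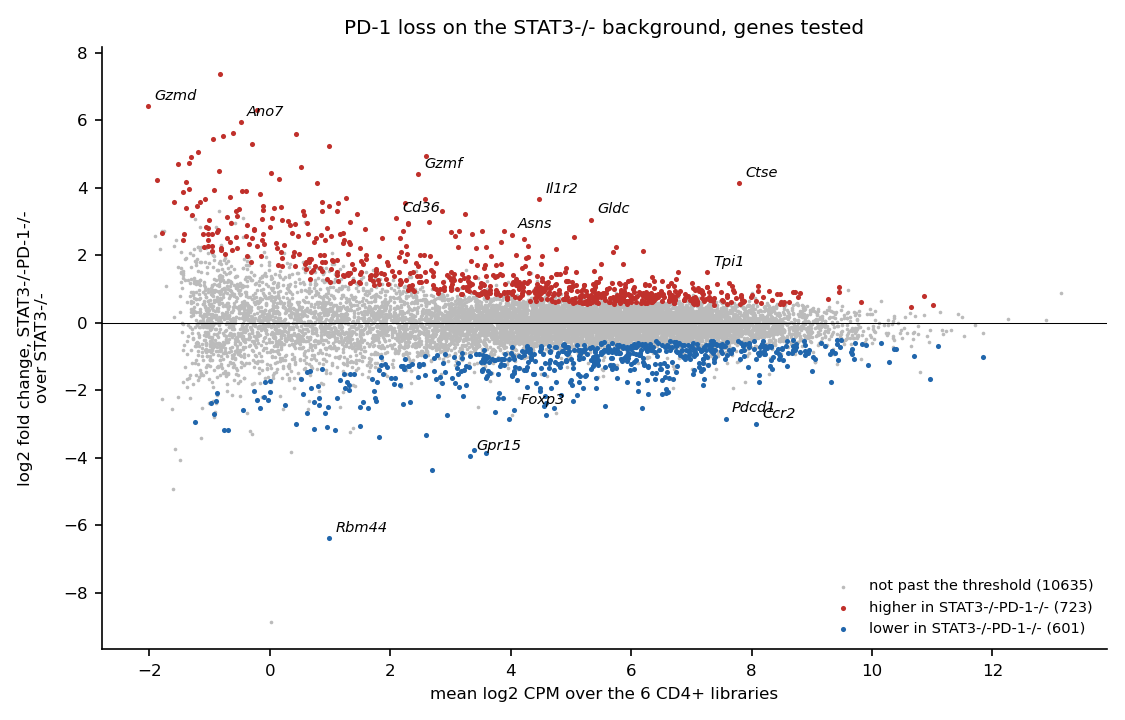
Log2 fold change of STAT3-/-PD-1-/- over STAT3-/- CD4+ T cells (vertical) against the mean log2 CPM of the 6 CD4+ libraries (horizontal), 1 point for each of the 11959 genes tested. Red and blue mark the 723 higher and 601 lower genes. Ctse is the highest point among abundant genes, and fitted values of the rarest genes depend on the prior count.

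Among genes at or above 3 in mean log2 CPM, the largest rise was that of Ctse, which encodes cathepsin E, an aspartic protease of endosomes. It was read at 30.5 and 34.2 CPM in STAT3-/- and at 539 and 597 CPM in STAT3-/-PD-1-/- CD4+ T cells, an increase of 17.6-fold (log2 fold change 4.13 ± 0.22, adjusted p = 0.00162). WT libraries were at 51.6 and 73.8 CPM, so the STAT3-/-PD-1-/- level was also above WT (log2 fold change 3.18, adjusted p = 0.00108). Il1r2, the decoy receptor for IL-1, rose from 4.59 and 2.27 to 39.3 and 47.2 CPM (log2 fold change 3.66 ± 0.36, adjusted p = 0.00440). Rab4a, a GTPase of endosome recycling, rose from 2.09 and 2.05 to 15.9 and 23.1 CPM, and Gldc, the glycine decarboxylase of mitochondria, from 12.3 and 10.2 to 90.5 and 98.3 CPM. For each of these 4 genes the libraries of a group lay close together beside the distance between groups. The other 8 of the 12 largest rises were those of Tubb6, a β-tubulin (2.74 ± 0.21), the protease inhibitor Serpine2 (2.74 ± 0.33), the receptor phosphatase Ptprk (2.72 ± 0.28), Trim66 (2.69 ± 0.34), Lad1 (2.63 ± 0.36), the asparagine synthetase Asns (2.62 ± 0.24), the endocytic receptor Lrp1 (2.58 ± 0.54) and Prickle1 (2.55 ± 0.29), all as log2 fold changes.

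The 12 largest falls included receptors that guide T cells in the body. Gpr15, a homing receptor of T cells for the colon, was read at 10.3 and 15.6 CPM in STAT3-/- and 1.21 and 0.482 CPM in STAT3-/-PD-1-/- CD4+ T cells (log2 fold change -3.94 ± 0.61, adjusted p = 0.0128). Ccr2, the receptor for CCL2, fell from 332 and 255 to 50.003 and 23.2 CPM (log2 fold change -3.00 ± 0.36, adjusted p = 0.00728). In WT libraries Ccr2 was at 530.2 and 435 CPM and Gpr15 at 23.6 and 8.74 CPM, so that for both genes the STAT3-/-PD-1-/- libraries were the lowest of the 6. Other large falls were those of the matrix protein gene Matn2 (-3.86 ± 0.32), Nsg2 (-2.85 ± 0.20), Pdcd1 itself, the corepressor Cbfa2t3 (-2.73 ± 0.45), the protease Tmprss13 (-2.63 ± 0.22), Foxp3 (-2.59 ± 0.31), Aff3 (-2.52 ± 0.26), Fgl2 (-2.51 ± 0.25), a secreted protein with a role in regulatory T cells, and the TNF receptor family member Tnfrsf25 (-2.47 ± 0.34), as log2 fold changes.

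All 44 genes of the DNA replication list had a positive log2 fold change, 25 of them passed the test as higher and none as lower (background 6.05% and 5.03%), and the list median was 0.78 against -0.01 over all genes tested. Mcm5, a subunit of the MCM helicase that unwinds DNA at origins, was read at 301 and 260.0 CPM in STAT3-/- and 514 and 509.9 CPM in STAT3-/-PD-1-/- libraries (adjusted p = 0.0235). Mcm10, a factor that activates the helicase, went from 37.8 and 41.2 to 88.2 and 92.7 CPM (log2 fold change 1.19 ± 0.15, adjusted p = 0.00789). Uhrf1, which carries DNA methylation over to new strands, went from 125 and 127 to 229 and 250.4 CPM and Lig1, the ligase that joins Okazaki fragments, from 177 and 167 to 316 and 334 CPM. WT libraries were at 37.5 and 34.4 CPM for Mcm10 and 136 and 127 CPM for Lig1, below the STAT3-/-PD-1-/- libraries. The per-library medians of the list, relative to the mean of the STAT3-/- libraries, were 0.06 and -0.06 in STAT3-/- and 0.77 and 0.76 in STAT3-/-PD-1-/-, so that the spread between libraries was small beside the difference.

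Promoters of the replication genes were searched for the E2F-type motif TTTCGCGC, or GCGCGAAA on the other strand, in the 250 bases before the start of the gene. RefSeq promoter windows (build GRCm38.p6) were matched for 35 of the 44 members, of which 6 held the motif, as did 63 of 9501 tested genes with a window (0.663%) and 0.256% of all 32851 windows of this length. Of the 18 matched members that passed the test, 3 held the motif, namely Mcm5, Rfc3 and Uhrf1. This share was close to that of all 35, so the motif did not set apart the members that passed. The lines that follow give 100 bases of the window of Mcm5 at chr8:75109310-75109409 (forward strand) and of Uhrf1 at chr17:56304082-56304181 (forward strand), 5′ to 3′ on the strand of the gene, with the motif in capitals. It begins 153 bases before the start of Mcm5 and 185 bases before that of Uhrf1. They are shown as examples of members that rose, and because the motif is rare among promoters. A match in letters is a description of the window and says nothing of what binds there.
Mcm5: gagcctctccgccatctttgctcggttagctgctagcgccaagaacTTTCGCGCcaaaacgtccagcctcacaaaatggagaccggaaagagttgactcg
Uhrf1: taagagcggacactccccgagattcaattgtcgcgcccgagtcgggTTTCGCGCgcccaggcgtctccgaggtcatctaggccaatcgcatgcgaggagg

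Of 52 genes of mitosis and the spindle, 51 had a positive log2 fold change, and the median was 0.50. Of the 52, 9 passed as higher and 1 as lower (background 6.05% and 5.03%). Mki67, the proliferation marker Ki-67, rose from 1884 and 1920.2 to 2709 and 2743 CPM (log2 fold change 0.52 ± 0.12, adjusted p = 0.0390), and Cdc20, an activator of the anaphase-promoting complex, from 63.03 and 70.5 to 106 and 115 CPM. The exception was the phosphatase gene Cdc25b, which fell from 353 and 384 to 216 and 181 CPM. Among cyclins, E2F factors and CDK inhibitors, 6 of 22 were higher, among them Cdk4 (0.59 ± 0.15), E2f1 (0.75 ± 0.15) and E2f8 (0.95 ± 0.17), whereas Cdkn1b, which encodes the inhibitor p27, fell from 145 and 129.7 to 81.1 and 73.1 CPM. Cdkn2a, which encodes the inhibitors p16 and p19Arf, went the other way, from 2.97 and 2.76 to 7.04 and 8.07 CPM. For Cdkn1b and Cdkn2a alike, the libraries of the 2 groups were well apart.

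Of 58 MYC targets 24 were higher and none lower (background 6.05% and 5.03%), and the median was 0.62. Of 83 genes of ribosome biogenesis and RNA polymerase I 19 were higher and none lower, and the median was 0.48. Srm, the spermidine synthase, rose from 10.5 and 8.32 to 24.4 and 25.95 CPM (log2 fold change 1.42 ± 0.20, adjusted p = 0.0107), Ung, a uracil-DNA glycosylase, from 17.6 and 15.9 to 39.6 and 45.9 CPM, and the ribosome assembly factor Rrp12 from 31.4 and 33.8 to 64.4 and 65.6 CPM. Nolc1, a nucleolar phosphoprotein, rose from 76.4 and 67.6 to 127 and 145 CPM. Myc was read at 79.7 and 43.6 CPM in STAT3-/- and 97.6 and 57.4 CPM in STAT3-/-PD-1-/- libraries, with replicate 1 above replicate 2 in both groups and a log2 fold change of 0.33 ± 0.33 (adjusted p = 0.541). Of the 77 genes of ribosomal proteins none was lower, the median was 0.20, and 1 was higher (1.3%, below the background). This was Rps2 (0.64 ± 0.14), whose level is uncertain because it has processed copies. The E-box CACGTG, which MYC can bind and which reads alike on both strands, was found before the start of 8 of 52 MYC targets with a window (9.83% of tested genes and 6.02% of all windows).

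Serine, glycine and 1-carbon metabolism, which supplies methyl and formyl groups for nucleotides, held some of the largest changes. Of 24 genes tested 13 were higher and none lower (background 6.05% and 5.03%), and the median was 0.69. Beside Gldc, Shmt1, the cytosolic serine hydroxymethyltransferase, rose from 12.2 and 11.4 to 48.4 and 58.8 CPM (log2 fold change 2.18 ± 0.18, adjusted p = 0.00332), its mitochondrial counterpart Shmt2 from 55.7 and 57.1 to 113 and 133 CPM, and the folate enzyme Mthfd1 from 59.1 and 54.8 to 136 and 131 CPM. Phgdh, the first enzyme of serine synthesis, rose from 20.04 and 18.01 to 36.5 and 47.8 CPM and Psat1, the next, from 118 and 103 to 206 and 218 CPM. As for all changed genes, the groups did not overlap for these (59% of all genes tested did not). The WT libraries were within or near the STAT3-/- range (Shmt1 16.3 and 14.5 CPM, Phgdh 19.5 and 18.4 CPM). Synthesis of purines and pyrimidines followed, with 17 of 30 genes higher, none lower and a median of 0.66. Gart, an enzyme of purine synthesis, went from 65.9 and 71.7 to 153 and 157 CPM and Cad, which starts pyrimidine synthesis, from 102 and 131 to 249 and 274 CPM. Tk1, the thymidine kinase of S phase, and Dut, the dUTPase, had log2 fold changes of 1.01 ± 0.15 and 1.05 ± 0.15.

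Of 17 amino acid transporters 3 were higher and 2 lower. The background, here and for the ATF4 targets below, was 6.05% higher and 5.03% lower genes. Slc7a5, the large neutral amino acid transporter LAT1, rose from 65.3 and 60.1 to 158 and 201 CPM (log2 fold change 1.52 ± 0.17, adjusted p = 0.00693) and Slc7a1, a transporter of arginine and lysine, from 92.3 and 104 to 177 and 207 CPM. Slc43a2 and Slc38a9, a lysosomal arginine sensor, fell by 1.36 and 0.99 on the log2 scale. Slc3a2, the CD98 heavy chain that pairs with Slc7a5, was read at 275 and 121 against 163 and 143 CPM with overlapping groups (adjusted p = 0.613). Targets of ATF4, the factor of the integrated stress response, were less uniform, since 6 of 25 were higher, none was lower and 10 had a negative log2 fold change (median 0.23). The 6 were Asns, Psat1, Phgdh, Shmt2, Pycr1 and Eif4ebp1, so that 5 of them were enzymes that make amino acids and 1 an inhibitor of translation. Asns was read at 6.12 and 5.12 CPM in STAT3-/- and 28.8 and 40.1 CPM in STAT3-/-PD-1-/- libraries (adjusted p = 0.00374). The letters TGATGNAA, or TTNCATCA on the other strand, the core of the composite site of ATF4 and C/EBP factors, occurred in 5 of 24 matched windows of the list against 2.33% of tested genes and 3.45% of all windows. Asns was one of them, and the 100 bases before its start at chr6:7693210-7693309 (reverse strand) are shown with the motif, which begins 23 bases before the start, in capitals.
Asns: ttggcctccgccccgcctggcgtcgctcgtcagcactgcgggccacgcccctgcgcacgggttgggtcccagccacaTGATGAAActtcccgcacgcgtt

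The pathways of glutathione (GSH), glycolysis and fatty acids are those the study followed in these same samples, so that the direction of their lists is not independent evidence. Of 27 glycolysis genes 10 were higher, none was lower, and the median log2 fold change was 0.60. Hk2, the hexokinase induced in activated T cells, rose from 59.2 and 33.4 to 122 and 114 CPM (log2 fold change 1.35 ± 0.26, adjusted p = 0.0227), Aldoa, an aldolase, from 310.0 and 328 to 559.9 and 641 CPM, and Ldha, the lactate dehydrogenase subunit, from 531 and 411 to 984 and 1004 CPM. Tpi1, Pgk1 (1.17 ± 0.20) and Pgam1 (1.22 ± 0.24) rose too, with Tpi1 at 107 and 83.8 against 268 and 274 CPM. Like Ldha, these genes have processed copies elsewhere in the genome that can take up reads, so that their levels are uncertain. The glucose transporter Slc2a1 did not pass the test, with 89.7 and 67.8 CPM in STAT3-/- and 86.7 and 67.4 CPM in STAT3-/-PD-1-/- libraries. The sign of its small log2 fold change (-0.03) turned with scaling by library totals (0.04). For its protein, GLUT1, the study reports a higher level in STAT3-/-PD-1-/- than in WT cells.

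In GSH metabolism 8 of 37 genes were higher and 1 was lower (background 6.05% and 5.03%), with a median of 0.52. Gsr, which regenerates GSH from its oxidized form, rose from 101 and 82.2 to 165 and 195 CPM (log2 fold change 0.98 ± 0.17, adjusted p = 0.0180), and the transferases Gsto1 and Gstm1 rose from 19.5 and 20.02 to 48.2 and 63.8 and from 1.11 and 0.845 to 6.22 and 7.23 CPM. The enzymes that build GSH did not pass the test. These were Gclc at 62.6 and 59.7 against 68.5 and 84.1 CPM (adjusted p = 0.250), Gclm (adjusted p = 0.637) and Gss (adjusted p = 0.102). Of the other higher members, Srm serves polyamine synthesis, and Rrm1 and Rrm2 are subunits of ribonucleotide reductase. Ggct, which breaks down γ-glutamyl peptides, fell by 0.76 on the log2 scale. Among 28 thioredoxin, peroxiredoxin and NRF2 target genes the calls were near the background of 6.05% higher and 5.03% lower genes, as 2 were higher, Prdx4 (1.00 ± 0.23) and Tkt (0.61 ± 0.14), and 1 was lower, Nfe2l2, the gene of NRF2 itself (40.7 and 31.9 against 18.5 and 21.1 CPM).

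Of 13 genes that the study's pathway scheme names for these 3 pathways, Slc7a5, Gsr, Hk2 and Cd36 were higher and Cpt1a was lower. Of 34 fatty acid genes tested, 27 had a positive log2 fold change, 5 passed as higher and 2 as lower (background 6.05% and 5.03%), and the median was 0.19. Those that rose deal with uptake and activation: Cd36, a fatty acid transporter, rose from 1.44 and 0.934 to 11.8 and 8.72 CPM (log2 fold change 3.11 ± 0.36, adjusted p = 0.00693), Fabp5, which binds fatty acids, from 2.83 and 1.82 to 7.87 and 8.92 CPM, and the acyl-CoA synthetases Acsl1, Acsl3 and Acsl6 by 1.42, 2.79 and 2.37 on the log2 scale. Cpt1a, the carnitine acyltransferase that admits fatty acids to mitochondria for oxidation, fell from 295 and 286 to 165 and 169 CPM (log2 fold change -0.80 ± 0.13, adjusted p = 0.0146), and was lower than in both WT libraries (242 and 242 CPM). These values are RNA. For protein the study reports CPT1A as higher in STAT3-/-PD-1-/- than in WT cells. It reports HK2 and CD36 protein as lower in STAT3-/- than in WT and unaffected in STAT3-/-PD-1-/- cells. The peroxisomal oxidase Acox3 fell by 0.68 on the log2 scale. In mitochondrial energy metabolism the share that passed was below the background of 6.05% higher genes, with 4 of 76 genes of the respiratory chain and ATP synthase (Ndufa12, Cyc1, Atp5b and Atp5g3, median 0.25) and 1 of 31 of the tricarboxylic acid cycle (Pcx, median 0.25), all higher. Of 27 cholesterol genes 3 were higher, among them Sqle, the squalene epoxidase (31.6 and 29.2 against 54.97 and 53.8 CPM, adjusted p = 0.0192). Of 20 hypoxia genes 4 were higher, among them Epas1, which encodes HIF-2α (187 and 202 against 387 and 444 CPM), and Ndrg1 (23.8 and 22.6 against 106 and 93.4 CPM). The chaperone list had 6 of 28 higher, with Hsp90ab1 at 1525 and 1464 against 2373 and 2854 CPM. In 2 further lists the share was below the background of 6.05% higher genes. The proteasome had 1 of 37 higher (2.7%, Psmd1, 0.73 ± 0.17). Of 20 aminoacyl-tRNA synthetases, Eprs alone passed as higher (5.0%, 0.63 ± 0.16), and 19 had a positive log2 fold change.

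**Figure D3:**
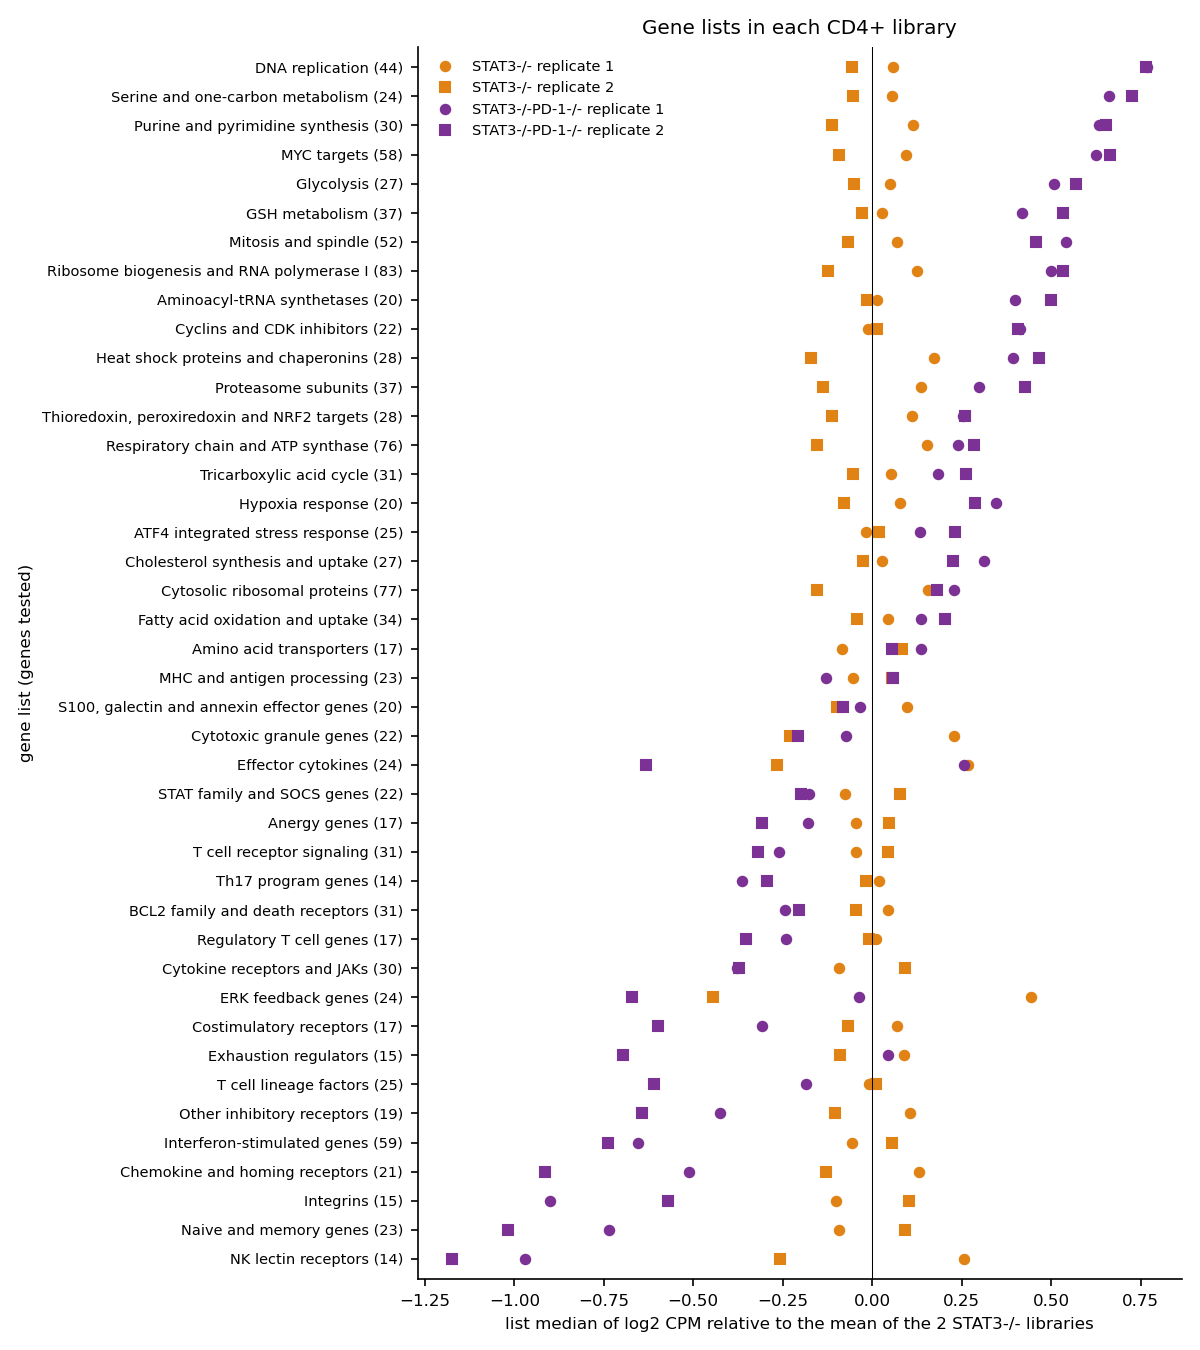
Median over each gene list of log2 CPM relative to the mean of the 2 STAT3-/- libraries, for lists with at least 14 genes tested, with 1 point for each of the 4 libraries and the number of genes tested in brackets. DNA replication sits at 0.77 and 0.76 in STAT3-/-PD-1-/- and naive and memory genes at -0.74 and -1.02, while for effector cytokines the libraries of a group lie far apart.

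All 23 genes of naive and memory T cells had a negative log2 fold change, 10 passed the test as lower, none as higher (background 5.03% and 6.05%), and the median was -0.84. Tcf7, which encodes TCF-1, the factor that keeps T cells able to renew, fell from 87.98 and 96.4 to 17.98 and 24.9 CPM (log2 fold change -2.10 ± 0.24, adjusted p = 0.00693), where WT libraries were at 131 and 188 CPM. Bach2, a repressor of effector differentiation, fell from 24.4 and 28.3 to 8.13 and 9.76 CPM and Il7r, the receptor for the survival cytokine IL-7, from 696 and 882 to 457 and 387 CPM. Bcl2, the survival factor, fell from 239 and 271 to 126 and 117 CPM (log2 fold change -1.06 ± 0.14, adjusted p = 0.00882). Id3 (-2.48 ± 0.55), Klf3, Dapl1, Nsg2 and S1pr1 fell too. As for all 1324 changed genes, the 2 groups did not overlap for these 10, where 59% of all genes tested did not overlap.

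Of 21 chemokine and homing receptors 8 were lower and none higher (background 5.03% and 6.05%), and the median was -0.80. Beside Gpr15 and Ccr2, Cxcr6, a receptor of T cells resident in the liver, fell from 643 and 530.0 to 286 and 155 CPM, Cxcr5, the receptor of follicular helper cells, from 2.88 and 2.85 to 1.25 and 1.12 CPM, and S1pr1, which leads cells out of tissue, from 511 and 424 to 279 and 226 CPM. Cxcr3 did not pass the test, at 194 and 263 against 170.1 and 142 CPM (adjusted p = 0.121). Of 15 integrin genes 7 were lower and none higher, with a median of -0.81. Itgb1, the β1 chain, fell from 3561 and 2683 to 981 and 1000.2 CPM (log2 fold change -1.66 ± 0.19, adjusted p = 0.00693), and Itga4, which pairs with it to form VLA-4, from 2518 and 2339.8 to 1301 and 1149 CPM. Itgae, the CD103 chain that binds E-cadherin on epithelium, fell from 4.08 and 4.18 to 1.12 and 1.25 CPM. Itgax, which encodes CD11c, was at 25.6 and 27.8 against 4.97 and 5.78 CPM and Itgam, which encodes CD11b, at 39.1 and 45.7 against 11.97 and 7.27 CPM. Of 14 lectin receptor genes shared with NK cells, 6 were lower, among them Klrd1 (CD94) at 205 and 125 against 48.97 and 29.2 CPM (log2 fold change -2.07 ± 0.37). Of 10 chemokine genes, Ccl1 rose (1.20 ± 0.27) and Ccl5 fell from 154 and 165 to 68.9 and 71.2 CPM (log2 fold change -1.19 ± 0.14, adjusted p = 0.00772).

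Several of the genes that fell, among them Itgam, Itgax, Itga2 and Klre1, also mark myeloid or NK cells, so the defining genes of those cells were read beside them. The 18 genes of macrophages and Kupffer cells summed to 8.86 and 18.5 CPM in STAT3-/- and 10.9 and 13.4 CPM in STAT3-/-PD-1-/- libraries, with Cd68 the most abundant. Of the 12 tested, 11 had a negative log2 fold change, Cd68 being the exception (0.57), none passed the test by edgeR or by DESeq2, and 1 had an unadjusted p under 0.05. None of the 18 was at 0 in every library. The sum of the neutrophil and monocyte list (39.2 and 46.7 against 12.2 and 8.24 CPM) was mostly Itgam. That of the dendritic cell list (26.5 and 28.7 against 6.22 and 7.83 CPM) was mostly Itgax, while Zbtb46 of that list was at 0.696 and 0.712 against 0.778 and 1.65 CPM. The neutrophil genes S100a8 and Ly6g were below 0.2 CPM in all 4 libraries. The NK list summed to 90.6 and 98.2 against 51.3 and 36.2 CPM, most of it Itga2 (65.9 and 75.8 against 30.6 and 24.2 CPM), and Ncr1, which encodes NKp46, was below 0.5 CPM throughout. The hepatocyte list, of which Trf was the most abundant and 3 genes were at 0 throughout, summed to 1.99 and 3.96 against 2.81 and 6.19 CPM. The B and plasma cell list, led by Cd79b and including Sdc1, which was higher (0.186 and 0 against 1.04 and 1.53 CPM), summed to 2.74 and 1.91 against 3.11 and 3.29 CPM, and the erythroid and platelet list to 0.928 and 2.45 against 1.77 and 1.45 CPM. Endothelial and stellate cell genes summed to 195.9 and 194.6 against 167.6 and 170.9 CPM, nearly all Pecam1, which T cells express, while Egfl7 of that list was higher (0.278 and 0.267 against 1.17 and 1.97 CPM). The CD8 genes summed to 11.97 and 11.39 against 15.2 and 25.3 CPM. The 12 general T cell genes summed to 9425 and 9018 against 7965 and 7572 CPM, 11 of them with a negative log2 fold change, and none passed the test by edgeR, while 1 had an unadjusted p under 0.05 and DESeq2 called 1 lower. Whether cells of another type have a part in any change above was not tested.

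Of 17 regulatory T cell genes 2 were higher and 5 lower (background 6.05% and 5.03%). Foxp3, the lineage factor of regulatory T cells, was read at 16.1 and 25.1 CPM in STAT3-/- and 3.37 and 3.45 CPM in STAT3-/-PD-1-/- libraries (log2 fold change -2.59 ± 0.31, adjusted p = 0.00728). The STAT3-/-PD-1-/- libraries were also the lowest against WT, at 20.6 and 30.6 CPM. Ikzf2, which encodes Helios, fell from 121 and 112 to 43.6 and 28.5 CPM and Lrrc32, which encodes the TGF-β carrier GARP, from 6.35 and 2.05 to 0.994 and 0.643 CPM, and Itgae and Il1rl1 were the other lower members. Il2ra, the IL-2 receptor chain CD25 of activated and regulatory T cells, rose from 164 and 191 to 349 and 279.9 CPM (log2 fold change 0.83 ± 0.17, adjusted p = 0.0263), and Tnfrsf9, which encodes 4-1BB, from 100.4 and 74.6 to 216 and 183 CPM. Il10 was at 153 and 28.1 against 106 and 30.8 CPM, so that the spread within a group was larger than the difference between groups.

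Among 25 lineage factors 2 were higher and 4 lower (background 6.05% and 5.03%). Eomes, a factor of cytotoxic T cells, rose from 4.27 and 3.25 to 7.78 and 8.76 CPM (log2 fold change 1.14 ± 0.26, adjusted p = 0.0340), and Irf8 from 80.4 and 66.3 to 145 and 122 CPM. Bcl6, the factor of follicular helper cells, fell from 7.10 and 8.85 to 2.98 and 3.33 CPM, Id2 from 646 and 655 to 411 and 427 CPM, and Foxp3 and Id3 were the other 2. Tbx21, the Th1 factor T-bet, was at 122 and 219 against 162 and 77.8 CPM with overlapping groups. Of 14 genes of the Th17 program, Maf alone passed the test, a share of 7.14% beside the background of 5.03% lower genes, falling from 328 and 332 to 132 and 92.9 CPM (log2 fold change -1.55 ± 0.19, adjusted p = 0.00786).

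Of the other 19 inhibitory receptors tested, 3 were lower and 1 was higher. The background, here and for the lists that follow in this paragraph, was 5.03% lower and 6.05% higher genes. Btla (189.5 and 177 against 114 and 86.3 CPM), Vsir, which encodes VISTA (279 and 318 against 182 and 191 CPM), and the collagen receptor Lair1 (49.4 and 39.5 against 27.2 and 21.9 CPM) fell, and Cd244a rose from 1.53 and 1.38 to 4.19 and 3.98 CPM. Lag3 (0.60 ± 0.20, adjusted p = 0.0921), Havcr2, which encodes TIM-3 (0.61 ± 0.21, adjusted p = 0.108), and Tigit (-0.35 ± 0.13, adjusted p = 0.124) did not pass the test, nor did Ctla4, whose STAT3-/- libraries were at 1495 and 363 CPM. Tox, a factor of exhausted T cells, was at 204 and 180.1 against 199 and 175 CPM (log2 fold change -0.04 ± 0.15), and of the 15 exhaustion regulators Tcf7, Maf and Ikzf2 were lower and Eomes was higher. Among 17 costimulatory receptors, Tnfrsf9, Tnfrsf8, which encodes CD30 (6.54 and 7.43 against 22.4 and 23.1 CPM), and Cd81 (1.45 ± 0.32) rose, while Tnfrsf25 and Slamf7 (-0.97 ± 0.25) fell. Of the 17 anergy genes, Ndrg1 and the ubiquitin ligase Rnf128, known as GRAIL (1.07 ± 0.27), rose, whereas Nt5e, which encodes CD73 (36.96 and 51.6 against 16.3 and 20.4 CPM), and the diacylglycerol kinase Dgka (611 and 722 against 396 and 273 CPM) fell.

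Of 31 genes of T cell receptor signaling 29 had a negative log2 fold change, and 3 passed the test, all lower (9.68%, against a background of 5.03% lower genes). Among them were the kinase Prkcq (701 and 672 against 451 and 408 CPM, adjusted p = 0.0283) and the RAS activator Rasgrp1 (385 and 391 against 257 and 277 CPM). Of 30 cytokine receptors and JAKs 8 were lower and 3 higher. Il18r1 fell from 983 and 1057 to 526 and 454 CPM, Il27ra from 136 and 161 to 78.8 and 61.9 CPM and Il9r by 1.93 on the log2 scale, while Il1r2, Il2ra and Tgfbr3 (1.84 ± 0.32) rose. Of 22 STAT and SOCS genes and their targets, Cish (121 and 126 against 73.6 and 51.2 CPM), Pim2 (67.4 and 61.3 against 31.4 and 31.01 CPM) and Socs5 fell and none rose. Of 24 ERK feedback genes, Etv4 rose (2.28 ± 0.37) and no other passed, a share of 4.17% below the background of 6.05% higher genes. Junb of that list was at 1016 and 233 CPM in STAT3-/-, 369.6 and 193 CPM in STAT3-/-PD-1-/- and 1052 and 331 CPM in WT libraries, and Fos at 301 and 130.2 CPM in STAT3-/-, 104 and 38.9 CPM in STAT3-/-PD-1-/- and 294 and 126 CPM in WT libraries, so that replicate 1 was above replicate 2 in all 3 groups. Of 31 genes of the BCL2 family and death receptors, Bcl2 and Traf1 fell (-0.81 ± 0.17) and none rose, so that 6.45% were lower against the background of 5.03%.

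Of 22 cytotoxic granule genes 5 were higher and 2 lower. The background, here and for the effector cytokines below, was 6.05% higher and 5.03% lower genes. Prf1, which encodes perforin, rose from 55.1 and 61.96 to 166 and 109 CPM (log2 fold change 1.23 ± 0.22, adjusted p = 0.0182), and the granzymes Gzmc and Gzmf rose from 7.10 and 2.27 to 19.1 and 25.5 and from 1.11 and 0.311 to 14.003 and 16.1 CPM. Gzmd had 0 and 0 reads in STAT3-/- and 11 and 11 in STAT3-/-PD-1-/- libraries, at least 6.72-fold higher when the floor of 3 counts over the group is taken for STAT3-/-, and at least 5.02-fold by the lower 95% limit for counting error. Gzme had 1 and 2 against 17 and 20 reads, a ratio of 11.3 with a 95% interval for counting error of 3.58 to 57.3. Gzmc to Gzmf lie side by side and are alike in sequence, so that reads may have been split among them. Gzmm and the protease Ctsw fell, from 9.46 and 10.1 to 5.01 and 5.14 and from 252 and 281 to 167 and 162 CPM. Gzmb, the main granzyme of cytotoxic T cells, was at 513 and 306 CPM in STAT3-/-, 871 and 729.9 CPM in STAT3-/-PD-1-/- and 1326 and 895 CPM in WT libraries, and the first 2 groups did not overlap, but it did not pass the test (log2 fold change 0.97 ± 0.28, adjusted p = 0.0666). Among 24 effector cytokines none was higher and 5 were lower, namely Ltb, Il16, Csf1, Tnfsf8 and Tnfsf10, with Csf1 at 145 and 216 against 99.9 and 72.4 CPM and Tnfsf8 at 70.5 and 48.3 against 20.4 and 17.96 CPM. Ifng was read at 444 and 126 against 385 and 155 CPM, and replicate 1 was above replicate 2 in both groups.

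Of 59 interferon-stimulated genes tested, 55 had a negative log2 fold change, 23 passed as lower and none as higher (background 5.03% and 6.05%), and the median was -0.72. Slfn5, a Schlafen family gene, fell from 101 and 127 to 25.4 and 27.4 CPM (log2 fold change -2.11 ± 0.17, adjusted p = 0.00332), and Xaf1, which binds the apoptosis inhibitor XIAP, from 205 and 198 to 75.2 and 77.6 CPM. Oas3, an enzyme that senses double-stranded RNA, fell from 129 and 159.5 to 63.1 and 47.7 CPM and Irf7, the factor that amplifies type I interferon, from 54.3 and 51.2 to 31.5 and 24.6 CPM. The libraries of WT cells were below STAT3-/- for these genes, with 118 and 119 CPM for Xaf1 and 77.4 and 58.6 CPM for Oas3, so that the STAT3-/- libraries were the highest of the 6 for both. Low-level members went the same way, although Ifit3 has the near-identical neighbour Ifit3b and reads may have been split between them, with Oasl2 at 8.63 and 10.5 against 2.03 and 1.73 CPM, Ifit3 at 7.28 and 7.96 against 1.94 and 2.33 CPM and Rsad2, which encodes viperin, at 3.20 and 4.63 against 1.43 and 0.884 CPM. Of 23 antigen presentation genes, which interferons also raise, none passed in either direction by edgeR, while 6 had an unadjusted p under 0.05 and DESeq2 called 1 higher and 2 lower. Their median was -0.07, or 0.01 with library totals, with B2m at 2922 and 2174 against 2131 and 2252 CPM and H2-K1 at 2609.5 and 2498 against 1966 and 2125 CPM.

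Many but not all of the interferon-stimulated genes with a promoter window hold a sequence element tied to interferon. Its frequency in a list of such genes is thus no separate evidence. The letters GAAA in 2 copies on the same strand with any 2 bases between them, or TTTC in the same arrangement when read from the other strand, the core of the element bound by factors that interferon activates, were found in the 250 bases before the start of 24 of the 40 members with a RefSeq window and of 10 of the 17 lower members with one. By comparison, 313 of the 9501 tested genes with a window held them (3.29%) and 2.98% of all windows. The 10 were Ifit1, Ifit3, Ifit3b, Ifi203, Ifi208, Oas3, Rsad2, Gbp2, Trim30a and Slfn5. The share among lower members was close to that among all members, so the element did not set the lower ones apart. As examples of lower members, printed on the strand of the gene with the element in capitals are 100 bases of the windows of Ifit1 at chr19:34640749-34640848 (forward strand), Ifit3 at chr19:34583345-34583444 (forward strand), Rsad2 at chr12:26456518-26456617 (reverse strand) and Slfn5 at chr11:82951902-82952001 (forward strand). Ifit1 and Ifit3 hold the element in 2 copies, Rsad2 and Slfn5 in 1, and the copy of Slfn5 reads in the other direction.
Ifit1: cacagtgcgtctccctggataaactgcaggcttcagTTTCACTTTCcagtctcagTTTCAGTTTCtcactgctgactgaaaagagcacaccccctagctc
Ifit3: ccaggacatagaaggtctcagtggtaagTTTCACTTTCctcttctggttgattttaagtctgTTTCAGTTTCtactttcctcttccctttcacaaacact
Rsad2: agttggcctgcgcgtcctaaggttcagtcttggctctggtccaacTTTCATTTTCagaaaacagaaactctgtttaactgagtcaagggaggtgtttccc
Slfn5: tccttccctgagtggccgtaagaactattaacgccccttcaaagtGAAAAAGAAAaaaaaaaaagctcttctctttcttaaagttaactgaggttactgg

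Beside the pathways above, Cybb, the catalytic subunit of the phagocyte NADPH oxidase, gave a pattern of 3 levels. It was read at 6.21 and 4.90 CPM in WT, 72.5 and 72.9 CPM in STAT3-/- and 32.5 and 18.96 CPM in STAT3-/-PD-1-/- libraries. The fall from STAT3-/- to STAT3-/-PD-1-/- passed the test (log2 fold change -1.50 ± 0.26, adjusted p = 0.0173), and the STAT3-/-PD-1-/- level was still above WT (2.21, adjusted p = 0.00539). The other 6 subunits of the list did not pass, among them Cyba (-0.01), whose sign turned under library totals (0.06) and under limma on log2(RPKM + 1) (0.01), and Rac2 (-0.37). Of 20 S100, galectin and annexin genes 1 passed, as lower, a share of 5.0% beside the background of 5.03% lower genes. This was Ahnak, which fell from 4536 and 5537 to 2661 and 2348 CPM (adjusted p = 0.00980).

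The same comparison in CD8+ T cells, with libraries of its own, gave 2017 changed genes of 12002 tested (16.8%), of which 1051 (8.76%) were higher and 966 (8.05%) lower. This count was 1034 without STAT3-/-PD-1-/- CD8+ replicate 1 and 2 without replicate 2, and 1194 and 461 without STAT3-/- CD8+ replicates 1 and 2. Of the 1324 genes changed in CD4+ T cells 1295 were tested in CD8+ T cells, and 1274 of these (98.4%) had the same sign there, against 84.7% of all 11691 genes tested in both. In CD8+ T cells 943 of the 1295 passed the test with the same sign and none with the opposite sign. Across the 11691 genes the log2 fold changes had a Pearson r of 0.85, given as a description, since genes are not independent replicates. The CD8+ T cells were taken from the livers of the recipients that also gave the CD4+ T cells, so the subsets are not independent animals. Ctse rose in CD8+ T cells from 19.8 and 22.1 to 392 and 418 CPM, and Pdcd1 fell from 422 and 458 to 93.95 and 66.5 CPM. Glycolysis (median 0.60 in CD4+ and 0.57 in CD8+), MYC targets (0.62 and 0.59) and naive and memory genes (-0.84 and -0.80) had close medians, whereas DNA replication had 0.78 and 0.41, with 25 and 15 of 44 genes higher, and mitosis 0.50 and -0.03, with 9 and 1 of 52 genes higher.

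The difference between the subsets was tested gene by gene as an interaction in a fit of all 12 libraries. By edgeR none of 12334 genes passed, and 443 had an unadjusted p under 0.05. DESeq2 called 21 genes, and edgeR called 9 when all genes with at least 1 count were kept. That fit took the libraries as independent. With a term for each pool of recipients, where the CD4+ and CD8+ libraries of one genotype and number were taken as one pool, edgeR called 22 genes, and 1214 had an unadjusted p under 0.05. Eomes rose in CD4+ T cells by 1.14 on the log2 scale and had a log2 fold change of -0.54 in CD8+ T cells (adjusted p = 0.0521), and the interaction had an unadjusted p of 9.11e-05 and an adjusted p of 0.27. Ccl5 fell in both, by 1.19 in CD4+ and 2.42 in CD8+ T cells on the log2 scale (interaction adjusted p = 0.24). Tcf7 fell in CD4+ T cells by 2.10 on the log2 scale and had -0.32 in CD8+ T cells (adjusted p = 0.462, interaction adjusted p = 0.54). Prf1 had a log2 fold change of 1.23 in CD4+ and 0.19 in CD8+ T cells, with an unadjusted interaction p of 0.00822. With the pool term the interaction adjusted p was 0.0416 for Eomes, 0.0260 for Ccl5, 0.0260 for Tcf7 and 0.0662 for Prf1. By edgeR the first 3 genes thus passed with this term and not without it, while by DESeq2 they passed without it (adjusted p = 0.000178 for Eomes, 9.26e-08 for Ccl5 and 0.00619 for Tcf7).

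**Figure D4:**
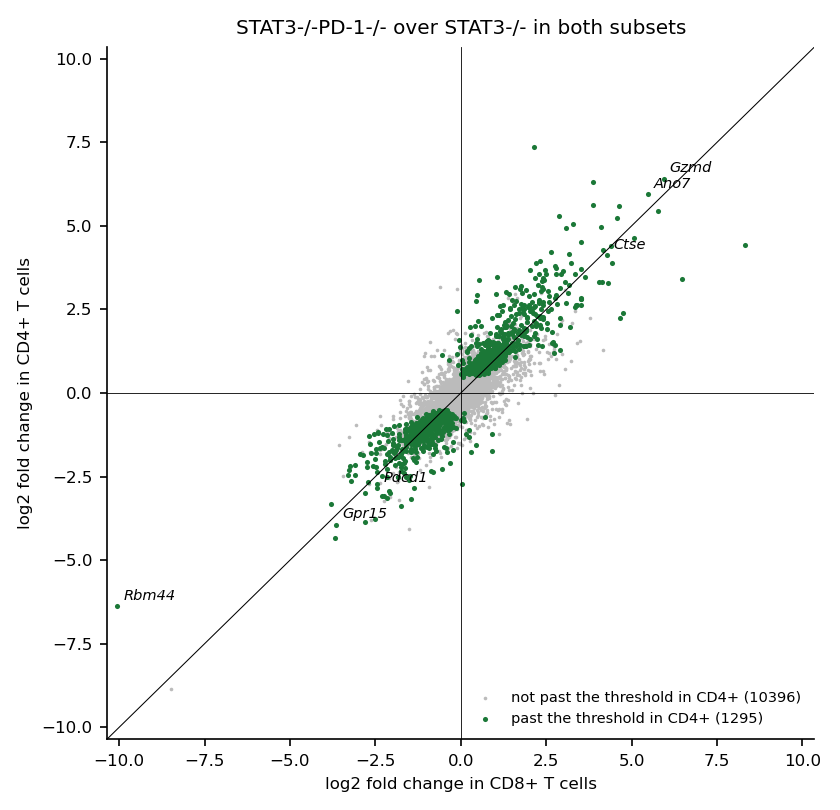
Log2 fold change of STAT3-/-PD-1-/- over STAT3-/- in CD4+ (vertical) and CD8+ T cells (horizontal) for the 11691 genes tested in both, with the line of equal change. Green marks the 1295 genes that passed the test in CD4+ T cells, of which 1274 have the same sign in both subsets.

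Chromosome 1, which carries Pdcd1, had the highest share of changed genes among the autosomes, with 116 of 688 tested (16.9%) against 11.1% over all genes. Of the largest rises and falls, Ctse, Il1r2, Serpine2, Lad1 and Aff3 lie on this chromosome too, each more than 5 Mb from Pdcd1. Within 5 Mb of Pdcd1 11 of 41 genes tested had changed (26.8%), 7 higher and 4 lower. None of the 41 passed without either STAT3-/-PD-1-/- library, where 13 and 12 had an unadjusted p under 0.05, and 7 and 6 passed without STAT3-/- replicates 1 and 2. Rbm44, which encodes an RNA-binding protein of germ cells, lies at chr1:91145103-91170795 and had 68 and 104 reads in STAT3-/- against 1 and 1 in STAT3-/-PD-1-/- libraries, a ratio of 93.8 with a 95% interval for counting error of 25.6 to 781. Its neighbour Ramp1 at chr1:91179822-91225196, a partner of the receptor for calcitonin gene-related peptide, rose from 0.139 and 0.0890 to 2.38 and 2.21 CPM (log2 fold change 4.27 ± 0.46, adjusted p = 0.00658). Ano7 at chr1:93373896-93404304 had 0 and 1 reads in STAT3-/- against 34 and 50 in STAT3-/-PD-1-/- libraries (ratio 77, interval 13.5 to 3080). WT libraries had 1.38 and 2.20 CPM for Rbm44 and 0.581 and 0.675 CPM for Ramp1, between the other groups for both genes, and 0.0447 and 0.0844 CPM for Ano7, close to STAT3-/-.

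The other changed neighbours of Pdcd1 moved less. D2hgdh, a dehydrogenase of 2-hydroxyglutarate at chr1:93825240-93852361, fell from 10.7 and 10.3 to 4.54 and 2.41 CPM, St8sia4, a polysialyltransferase, from 177 and 122 to 47.5 and 29.8 CPM and Scly, a selenocysteine lyase, from 45.7 and 45.3 to 27.1 and 25.3 CPM. Pask, a metabolic kinase, rose from 14.8 and 17.8 to 34.7 and 31.9 CPM and Hdlbp from 332 and 332 to 478 and 552 CPM, and Ppp1r7 (0.62 ± 0.15), Dtymk (0.55 ± 0.14) and Sh3bp4 (1.52 ± 0.39) were the other 3 that rose. All of these neighbours except Sh3bp4 also passed the test in CD8+ T cells, in the same direction. Whether the position beside Pdcd1 has a part in these changes was not tested. In the 10 Mb on the side of lower coordinates 18 of 67 genes had changed (26.9%), in the 10 Mb on the other side 1 of 6, and the largest shares elsewhere on the chromosome were 30.4% of 23 genes between 30 and 20 Mb below and 27.3% of 11 genes between 10 and 20 Mb above.

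**Figure D5:**
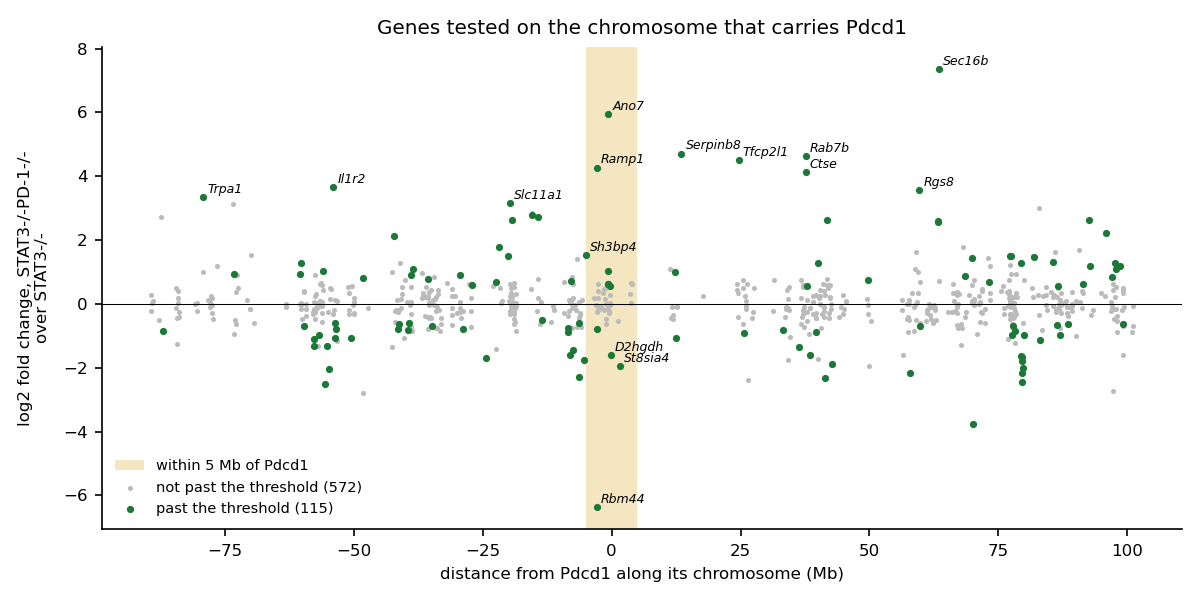
Log2 fold change of STAT3-/-PD-1-/- over STAT3-/- CD4+ T cells (vertical) by distance from Pdcd1 (horizontal, in Mb) for the tested genes on its chromosome other than Pdcd1. Green marks the 115 that passed the test, and the shaded band spans 5 Mb on each side, where Rbm44, Ramp1 and Ano7 lie farthest from 0. The fitted values of Rbm44, Ano7 and Sec16b, with 3 or fewer reads in 1 group, depend on the prior count.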

How the data were processed

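The deposited tables held read counts per gene, made by the authors with STAR alignment to mm10 and HTSeq-count on RefSeq genes, and RPKM values that the authors derived from them by exon length and a library size that is not stated. Strand use in counting is not given in the sources used here, so genes that overlap or have an antisense partner are uncertain. The protocols in the labels describe another cell type and kit and were not used.

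Counts of the 6 CD4+ libraries were fitted together with edgeR 4.0.16 (R 4.3.3) after filterByExpr (minimum count 10, minimum total 15) and TMM scaling, with the quasi-likelihood test, 3 residual degrees of freedom and Benjamini-Hochberg adjustment at 0.05. The 12-library fit tested the interaction of subset and PD-1 loss. Exact permutation of 2 against 2 libraries cannot give a p below 0.333 and was not used. The groups share replicate numbers, but no label states that libraries of the same number belong together. Each library is a pool of 3 recipients. Without a block, p-values measure the spread between pools, any difference between replicate numbers included. Ratios of genes with 1 to 3 reads in a group carry 95% exact intervals for counting error only, and those of genes with 0 reads are bounds; 27 of the changed genes had 3 or fewer reads in a group.

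Genes named were the deleted genes, the 12 largest rises and the 12 largest falls (changed, non-overlapping, mean log2 CPM 3 or above), changed and selected other members of gene lists, and changed genes within 5 Mb of Pdcd1. A few genes that this rule names are not reported here. The comparison, the lists, the motifs and the sequences were chosen with earlier results of these data known, so list counts and medians are descriptions, and unchanged genes named beside them were picked with their values in view. The lists of GSH, glycolysis, fatty acid, MYC and respiratory genes follow pathways the study drew from these samples. Alternatives were DESeq2 1.42.0, other scalings and filters, a replicate block, each library left out, the 4 libraries alone, limma 3.58.1 on log2(RPKM + 1), robust dispersions, stricter thresholds and, for the interaction, a term for each pool.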

Additional observations from a re-analysis of the deposited data

How the results depend on the processing

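The count of 1324 changed genes lay between 1155 and 1645 under other scalings and filters, robust dispersions, the 4 libraries alone and limma on log2(RPKM + 1). It was 2100 with DESeq2, which called 1277 of the 1324, 717 with a log2 fold change of at least 1, and 152 at an adjusted p under 0.01. Leaving out 1 library at a time gave 0 to 1212, the lowest without STAT3-/-PD-1-/- replicate 2, and the cause was not tested. The share of higher genes was 54.6%, against 65.9% with library totals (946 higher, 489 lower) and 63.8% with limma (818 higher, 465 lower), and the cause was not tested. Library totals moved the median of all genes from -0.01 to 0.06. Where edgeR called no member of a list in 1 direction, 0 to 4 members had an unadjusted p under 0.05 there and DESeq2 called at most 1, or 2 for lower antigen presentation genes.

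Replicate numbers are shared by the groups, and the library serial numbers in the labels run on within each replicate number, but no label ties a number to a batch. The deviations from the group means of same-numbered libraries correlated at 0.206 for STAT3-/- and STAT3-/-PD-1-/-, 0.659 for STAT3-/- and WT and 0.320 for STAT3-/-PD-1-/- and WT. With the replicate block 3105 genes passed, including all 1324, and none passed for the interaction. Of the named genes 10 more passed with it, among them Junb at -0.86. With a term for each pool of recipients, added after the data were seen, the interaction gave 22 genes. Apart from these blocks it gave 21 genes with DESeq2 and 9 with all genes of at least 1 count. It gave none with the other scalings or with at least 10 counts in every library. The cause was not tested.

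For Pdcd1 the log2 fold change ran from -3.46 to -2.40 with 1 library left out. For 149 named genes called beside Pdcd1, the alternatives read here kept the threshold of 0.05 for the adjusted p. Where they left out no single library and tested all 149, 138 to 149 passed and none turned its sign. With 1 library left out 0 to 141 of the 149 passed: 0 without STAT3-/-PD-1-/- replicate 2, 24 without replicate 1, 96 and 122 without STAT3-/- replicates 2 and 1. Signs turned for genes that did not pass the test. Leaving out 1 library gave -0.039 to 0.53 for Batf, -1.86 to 0.27 for Junb, -0.42 to 0.010 for B2m, -0.090 to 0.59 for Lgals1, -0.072 to 0.042 for Cyba, -0.85 to 0.34 for Slc3a2, -0.0053 to 0.29 for Slc1a5, -0.11 to 0.83 for Myc and -0.23 to 0.18 for Slc2a1. Library totals gave 0.064 for Cyba and 0.045 for Slc2a1, and limma gave 0.014 for Cyba.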
